A study of Mus musculus with 6 samples.

Results

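A group of 10 genes of the inflammatory cytokine response and its NF-κB feedback were followed through the spleen of mice given cadmium. These were Il1b, Tnf, Il1rn, Nfkbia, Tnfaip3, Ccl2, Ccl3, Ccl4, Cxcl2 and Ptgs2. All probes whose platform annotation gave 1 of these 10 symbols were taken, which came to 18 of the 45281 probes on the array. Total RNA of spleen tissue had been measured on Illumina bead arrays, on which each probe gives a mean bead signal and a detection p-value against negative controls. The mice were of the outbred ICR stock and 28 days old, and each had received 1 subcutaneous injection in 200 µL of saline 24 h earlier. The groups were saline alone, cadmium chloride at 5 µmol/kg body weight and cadmium chloride at 10 µmol/kg, with 2 arrays each. The labels gave 7 to 8 animals per group but not how many stood behind an array, or whether their RNA was pooled. The p-values below therefore rest on array-to-array spread, part of which may be technical.

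NF-κB is a family of transcription factors that sits inactive in the cytoplasm, bound by inhibitors of the IκB type. Signals from the receptors for IL-1β, TNF and microbial products lead to the destruction of the inhibitor, and NF-κB then enters the nucleus and binds κB sites in the DNA of cytokine and chemokine genes. Among the genes it induces are its own brakes, IκBα (Nfkbia) and the ubiquitin-editing enzyme A20 (Tnfaip3). In the spleen, macrophages, monocytes and neutrophils are known sources of these cytokines.

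The 6 arrays did not form 3 tidy groups. Between 16265 and 18561 probes were detected per array at a detection p under 0.05, and the lowest detected signal lay between 7.56 and 10.63 units. Of 32 listed genes of the pancreatic acinar cell, the enzyme-secreting cell of an organ beside the spleen, 27 were measured. On 4 arrays, called acinar-bright, all 27 were detected, with summed signals of 108554 to 230978 units. These arrays were the second saline array, the second array at 10 µmol/kg and the pair at 5 µmol/kg. The remaining arrays, the first at 10 µmol/kg and the first of saline, detected 11 and 8 of the 27, with sums of 870 and 446 units, and are called acinar-dim. Markers of B cells (8 of 11 listed genes measured), T cells (7 of 11), erythroid cells (7 of 10) and macrophages and monocytes (16 of 19) were present, with no reference spleen compared. Among the listed genes with probes, Pax5, Cd8a, Cd5, Epb42 and Cd5l were detected on no array. In tissue RNA, fewer cells of a type and less RNA per cell cannot be told apart.

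Detection came first, because it decided which of the 10 genes could be compared. A probe was tested when it was detected on at least 2 arrays, which 7 of the 18 probes and 6 of the 10 genes were. Il1b, Nfkbia, Tnfaip3 and Ccl4 each had a probe detected on all 6 arrays. Of the 2 probes of Tnf, 1 was detected on 5 arrays and the other on 4. A single probe of Il1rn was detected on 4. Ccl2, Ccl3 and Cxcl2 were detected on no array, and Ptgs2 on saline array 1 only.

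**Figure D1:**
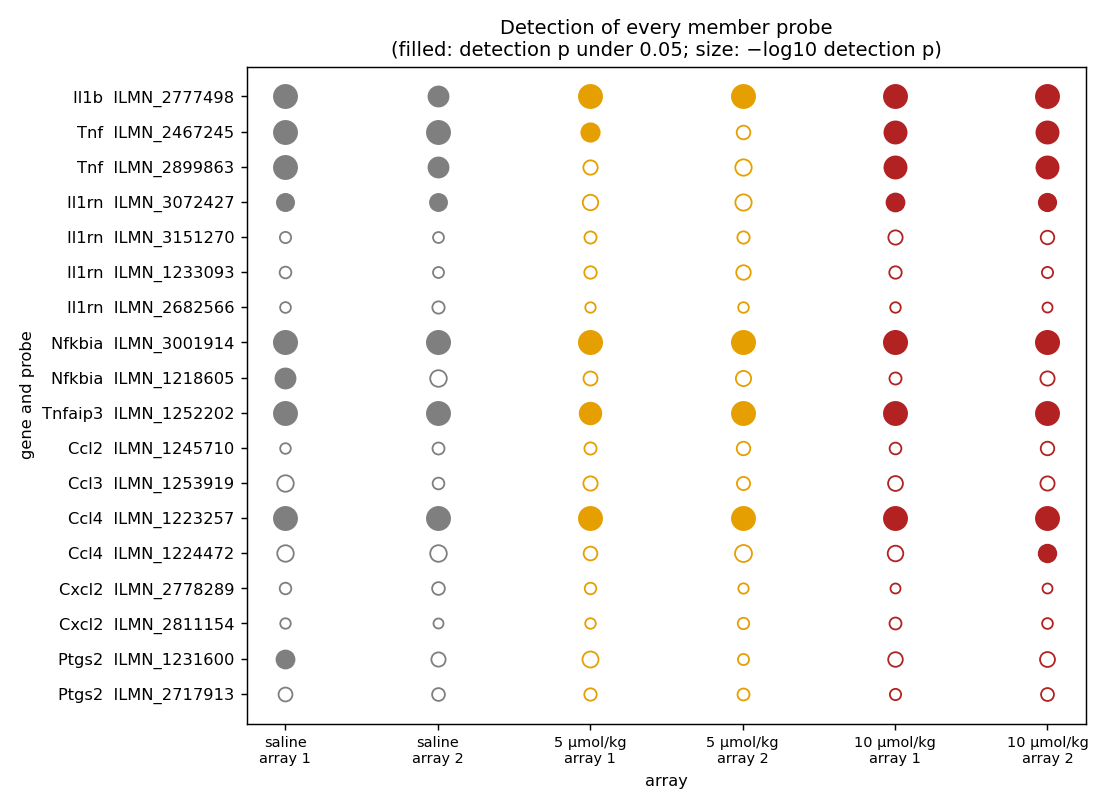
Detection of the 18 probes (rows) on the 6 arrays (columns). Filled circles have a detection p under 0.05 and open ones do not, and a larger circle has a smaller detection p. Il1b, Nfkbia, Tnfaip3 and Ccl4 each have a row filled across all arrays, the Tnf rows open up at 5 µmol/kg, and Ccl2, Ccl3 and Cxcl2 are open throughout.

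Of the cytokines, the ligands Il1b and Tnf differed from saline in opposite directions. Il1b was 1.72-fold as bright at 5 µmol/kg and 1.58-fold at 10 µmol/kg as in saline, on the scale defined below, while Tnf was dimmest at 5 µmol/kg, where 1 of its probes was not detected at all. Neither difference passed the threshold of an adjusted p under 0.05 over all probes tested.

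Il1b encodes the precursor of IL-1β, which caspase-1 cuts into the secreted, fever-inducing cytokine. Its probe, ILMN_2777498, read 36.4 and 17.9 units on the saline arrays, 61.2 and 52.5 units at 5 µmol/kg and 52.8 and 48.4 units at 10 µmol/kg. All 4 cadmium arrays lay above both saline arrays, and the saline arrays differed from each other more than the cadmium arrays did. The group lay wholly above saline for 24.1% of all probes at 5 µmol/kg and for 12.1% at 10 µmol/kg. The mean was 56.8 ± 6.1 units at 5 µmol/kg, against 27.1 ± 13.0 units in saline (SD, n = 2 each). The 10 µmol/kg mean was 50.6 ± 3.1 units (SD, n = 2). All tests used log2(signal + 16), and on that scale the 5 µmol/kg arrays exceeded saline by 0.79 ± 0.31 (SE), with a 95% interval of 0.07 to 1.51. In limma's moderated test this gave an unadjusted p of 0.036 and an adjusted p of 0.4995. For 10 µmol/kg the difference was 0.66 ± 0.31, with an interval of −0.06 to 1.38, an unadjusted p of 0.06735 and an adjusted p of 0.9998. Between the doses, Il1b differed by −0.13 ± 0.31 at 10 against 5 µmol/kg, an interval of −0.85 to 0.59.

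The size of the Il1b difference hung on the saline arrays. It came to 0.47 (5 µmol/kg) and 0.35 (10 µmol/kg) once saline array 2 was left out. With saline array 1 left out instead it came to 1.10 and 0.97. The direction was the same on either side of the acinar split. Among the 4 acinar-bright arrays the difference was 1.10 at 5 µmol/kg and 0.92 at 10 µmol/kg, and between the 2 acinar-dim arrays it was 0.39 at 10 µmol/kg, a value of 1 array against 1 array that was not tested.

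Markers of cells that make IL-1β were read as well. Their summed signals overlapped with saline, except those of macrophages and monocytes at 10 µmol/kg, which lay above it. The summed signal of the 15 measured neutrophil and granulocyte precursor genes was 30816 to 37167 units at 5 µmol/kg and 29825 to 34847 units at 10 µmol/kg, against 24181 to 34547 units in saline. All 15 were detected on every array. Of these genes 11 read above and 4 below saline at each dose. At each dose 5 were higher with an unadjusted p under 0.05, Retnlg, Elane, Prtn3, Ctsg and Ms4a3, which are neutrophil or precursor products. Of all probes 50.7% and 48.9% read above saline at 5 and 10 µmol/kg, and 5.41% and 0.923% were higher with such a p. The 16 macrophage and monocyte genes summed to 27747 to 33268 units at 5 µmol/kg and 30499 to 37903 units at 10 µmol/kg, against 25649 to 29923 units in saline. Of these 16, 9 read above saline at 5 µmol/kg and 12 at 10 µmol/kg, and 0 and 5 were higher with an unadjusted p under 0.05, the 5 being C1qa, C1qb, C1qc, Spic and Mrc1. The part of these cells in the Il1b values was not tested.

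Tnf encodes tumour necrosis factor, the cytokine that activates NF-κB through its own receptors. Its probe ILMN_2467245 read 32.1 and 27.9 units in saline, 14.2 and 4.18 units at 5 µmol/kg and 18.9 and 19.6 units at 10 µmol/kg. The other probe, ILMN_2899863, read 35.5 and 17.9 units in saline, 5.58 and 8.83 units at 5 µmol/kg and 19.4 and 19.8 units at 10 µmol/kg. Both probes had their lowest signals on the 2 arrays at 5 µmol/kg, with no overlap with either other group. The 5 µmol/kg group lay wholly below saline for 24% of all probes, and the 10 µmol/kg group wholly above 5 µmol/kg for 14.5%. The 10 µmol/kg arrays of ILMN_2467245 lay below both saline arrays, while those of ILMN_2899863 lay between them.

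Against saline, ILMN_2467245 differed by −0.90 ± 0.30 at 5 µmol/kg, with an interval of −1.60 to −0.20, an unadjusted p of 0.01873 and an adjusted p of 0.4995 by limma. ILMN_2467245 was detected on 1 of the 2 arrays at 5 µmol/kg. For ILMN_2899863 it was −0.85 ± 0.31 (−1.57 to −0.14), with an unadjusted p of 0.02531 and an adjusted p of 0.4995. This probe was not detected on either array at 5 µmol/kg, so that its level there is a bound. Against the detection limits of those arrays its mean was at least 1.57-fold lower than in saline, a fold of means that leaves out array spread. The differences between 10 µmol/kg and saline were −0.38 ± 0.30 and −0.23 ± 0.31, with unadjusted p values of 0.24 and 0.474 and an adjusted p of 0.9998 for each. Those between 10 and 5 µmol/kg were 0.51 ± 0.30 and 0.62 ± 0.31, with unadjusted p values of 0.1281 and 0.07923 and an adjusted p of 0.9855 for each. ILMN_2899863 was at least 1.34-fold higher at 10 than at 5 µmol/kg.

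Among the 4 acinar-bright arrays the Tnf differences at 5 µmol/kg were −0.83 and −0.55, in the order of the probes above. For 10 µmol/kg they were −0.31 and 0.08 there, and −0.46 and −0.54 between the 2 acinar-dim arrays. The direction of ILMN_2899863 at 10 µmol/kg thus turned among the acinar-bright arrays, and it also turned when saline array 1 was left out, to 0.072. No left-out array turned either probe at 5 µmol/kg, where the value nearest 0 was −0.61 for ILMN_2467245 (second array at that dose left out) and −0.55 for ILMN_2899863 (first saline array left out).

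The summed dendritic markers lay below saline in both cadmium groups, and the summed B cell markers did at 5 µmol/kg. B cell sums at 10 µmol/kg, and T cell and NK cell sums at both doses, overlapped with saline. The macrophage and neutrophil lists, given above with Il1b, are also those of known sources of Tnf, and their sums did not lie below saline at either dose. At 5 and 10 µmol/kg, 9 and 12 of the 16 macrophage and monocyte genes read above saline. For the 15 neutrophil and precursor genes it was 11 at each dose. The 8 measured B cell genes summed to 5904 to 8340 units at 5 µmol/kg and 8097 to 8736 units at 10 µmol/kg, against 8457 to 12641 units in saline. Of the 8, 7 read below saline at 5 µmol/kg, 4 with an unadjusted p under 0.05, and 8 read below at 10 µmol/kg, 1 with such a p. Of all probes 49.3% and 51.1% read below saline at these doses, and 4.32% and 0.501% were lower with such a p. The 5 measured dendritic cell genes summed to 171 to 198 units at 5 µmol/kg and 201 to 264 units at 10 µmol/kg, against 301 to 370 units in saline, with 5 of 5 below saline at 5 µmol/kg and 4 of 5 at 10 µmol/kg. The 7 measured T cell genes summed to 2881 to 3436 units at 5 µmol/kg and 3124 to 3374 units at 10 µmol/kg, against 2826 to 3612 units in saline. The 4 measured NK cell genes summed to 642 to 714 units at 5 µmol/kg and 756 to 876 units at 10 µmol/kg, against 575 to 1049 units in saline. The dendritic genes Itgax, Flt3 and Xcr1 and the B cell gene Pax5 were detected on no array. The part of these cells in the Tnf values was not tested.

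**Figure D2:**
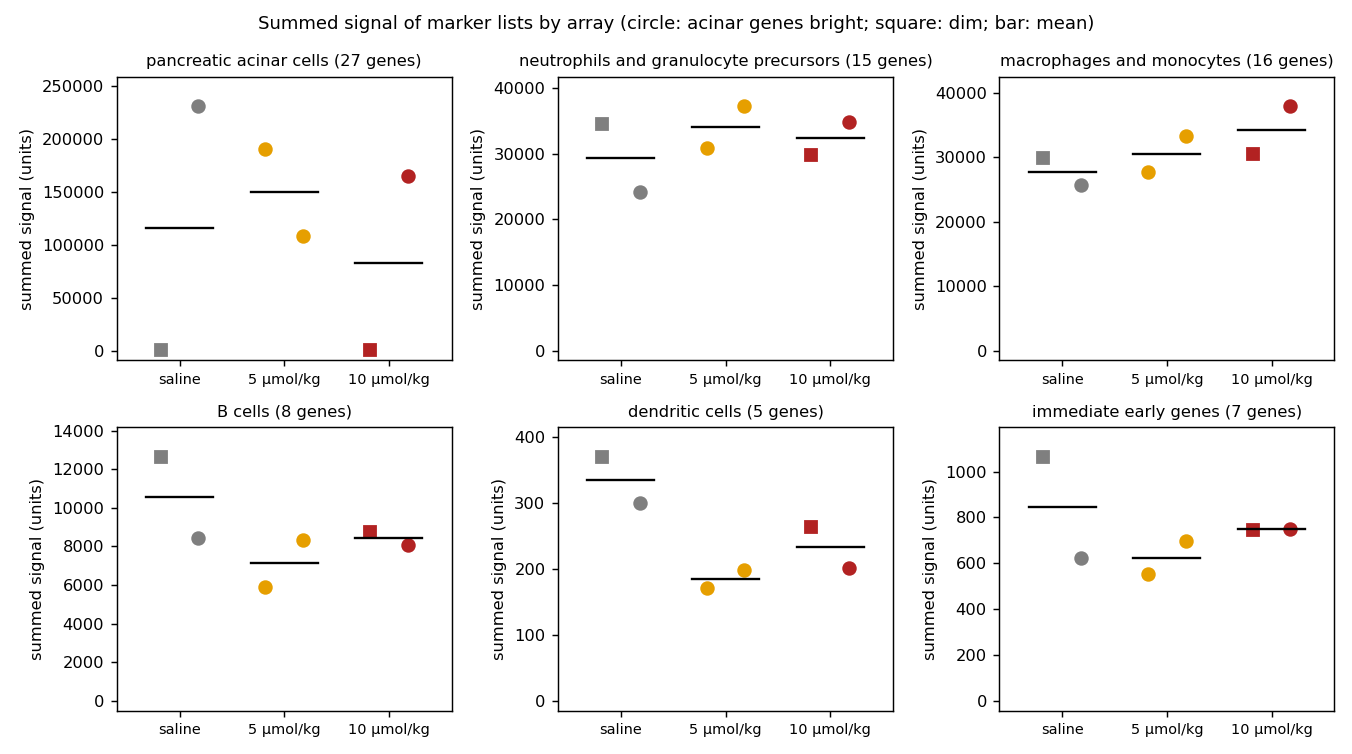
Summed deposited signal (y axis, units) of 6 marker lists on each array, by group (x axis). Circles are acinar-bright and squares acinar-dim arrays, and bars are means of 2 arrays. The acinar panel shows saline array 1 and array 1 at 10 µmol/kg near 0, and the dendritic panel shows both cadmium groups below saline.

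Il1rn encodes the IL-1 receptor antagonist, which occupies the IL-1 receptor without signalling. Its only tested probe, ILMN_3072427, read 7.78 and 10.5 units in saline, 7.79 and 8.69 units at 5 µmol/kg and 12.4 and 10.3 units at 10 µmol/kg. All of these signals lay close to the detection limit, and neither array at 5 µmol/kg passed it. It differed from saline by −0.05 ± 0.26 at 5 µmol/kg and by 0.12 ± 0.26 at 10 µmol/kg. Both 10 µmol/kg arrays lay above both 5 µmol/kg arrays, and against the detection limit the gene was at least 1.03-fold higher. The other 3 Il1rn probes were detected on no array, with signals from −9.31 to 5.77 units, 1 of them designed on another transcript, NM_001039701.

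The feedback inhibitors Nfkbia and Tnfaip3 were both well detected, and neither separated the cadmium arrays from saline at both doses. Their promoters, taken with that of Cxcl2 from the RefSeq table for GRCm38.p6, with 1 of 2 listed starts of Tnfaip3, are shown because they carry the κB consensus within the 250 bases before the gene's start. Capitals mark the matches, each sequence runs 5′ to 3′ on the gene's own strand, and the last base printed is the base before the start.
Nfkbia, chr12:55492648-55492897, minus strand: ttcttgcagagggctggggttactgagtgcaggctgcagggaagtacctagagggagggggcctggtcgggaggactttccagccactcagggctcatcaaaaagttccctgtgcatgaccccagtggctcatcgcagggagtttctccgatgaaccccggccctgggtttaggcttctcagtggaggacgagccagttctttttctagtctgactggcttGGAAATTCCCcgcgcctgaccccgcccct
Tnfaip3, chr10:19015411-19015660, minus strand: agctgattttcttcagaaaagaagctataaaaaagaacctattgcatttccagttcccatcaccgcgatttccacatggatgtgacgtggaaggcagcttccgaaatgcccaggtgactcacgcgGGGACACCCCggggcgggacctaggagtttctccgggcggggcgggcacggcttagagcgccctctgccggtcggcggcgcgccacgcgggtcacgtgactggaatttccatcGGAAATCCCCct
Cxcl2, chr5:90903649-90903898, plus strand: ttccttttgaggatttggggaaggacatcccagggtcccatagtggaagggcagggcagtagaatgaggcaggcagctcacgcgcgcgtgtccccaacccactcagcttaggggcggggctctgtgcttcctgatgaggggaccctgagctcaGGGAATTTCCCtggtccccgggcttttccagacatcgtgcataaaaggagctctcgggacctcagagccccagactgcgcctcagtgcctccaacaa

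In Nfkbia the match lay 29 to 20 bases before the start. In Tnfaip3 1 match lay 125 to 116 and another 12 to 3 bases before it. In Cxcl2 matches on both strands overlapped, 97 to 87 bases before it. The search used the 10-base κB consensus on both strands, and 3 of the 8 genes with an entry in the table held a match, against 4.46% of all 27025 genes in the table (3.90% of 32851 promoters). No match was found in the windows of Il1b, Tnf, Il1rn, Ccl3 and Ptgs2, which says only that these letters are not in those 250 bases. Ccl2 and Ccl4 were not looked at here.

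Nfkbia, which encodes IκBα, was read by ILMN_3001914 at 795 and 462 units in saline, 626 and 876 units at 5 µmol/kg and 860 and 731 units at 10 µmol/kg. Saline array 2 was the lowest of the 6, and saline array 1 lay among the cadmium arrays, so the groups overlapped in every comparison. Relative to saline it differed by 0.28 ± 0.35 (95% interval −0.54 to 1.10) at 5 µmol/kg and by 0.38 ± 0.35 (−0.44 to 1.20) at 10 µmol/kg. In limma's test the unadjusted p values were 0.4488 and 0.3169. Leaving out saline array 2 brought these to −0.10 and −0.0035, so the higher cadmium means rested on that array. The second Nfkbia probe, ILMN_1218605, was detected on saline array 1 only, with signals of −0.22 to 10.3 units.

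Tnfaip3, which encodes A20, was read by its only probe, ILMN_1252202, at 53.2 and 50.0 units in saline, 28.4 and 49.6 units at 5 µmol/kg and 32.8 and 57.2 units at 10 µmol/kg. Array 1 was the low array of each cadmium group, and array 2 read close to saline. A20 mRNA differed from saline by −0.33 ± 0.33 (−1.10 to 0.45) at 5 µmol/kg and by −0.18 ± 0.33 (−0.95 to 0.60) at 10 µmol/kg, with unadjusted p values of 0.358 and 0.6101 by limma. Depending on which array of the 5 µmol/kg group was left out, the difference there was −0.04 (first) or −0.61 (second). Leaving out the first array of the 10 µmol/kg group turned the sign (0.12), and the difference at that dose was 0.15 among the acinar-bright arrays and −0.50 between the acinar-dim arrays.

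Of the 4 chemokines only Ccl4 could be compared. Ccl4, a CC chemokine that draws monocytes, lymphocytes and NK cells, was read by ILMN_1223257 at 29.3 and 36.5 units in saline, 40.3 and 30.1 units at 5 µmol/kg and 29.5 and 30.9 units at 10 µmol/kg. The groups overlapped in every comparison. Ccl4 differed from saline by 0.06 ± 0.27 (−0.58 to 0.70) at 5 µmol/kg and by −0.08 ± 0.27 (−0.72 to 0.56) at 10 µmol/kg, with limma's unadjusted p at 0.8219 and 0.7842. On this scale the upper ends of these intervals are 1.63-fold and 1.48-fold. The second Ccl4 probe, ILMN_1224472, read 4.02 to 11.0 units and was detected on array 2 at 10 µmol/kg only.

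The other chemokines were below detection. Ccl2, which draws monocytes through CCR2, read between −4.70 and 3.90 units on its single probe. Ccl3, a close relative of Ccl4, read between −0.63 and 6.90 units. Cxcl2, which draws neutrophils through CXCR2, read between −10.2 and 1.79 units on both of its probes. Every one of these signals was under the lowest detected signal of any array, so a difference between groups was not measurable at this brightness.

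Ptgs2, the inducible cyclooxygenase that makes prostaglandin precursors, had a probe, ILMN_1231600, with 8.75 units and a detection p of 0.02885 on saline array 1. Its highest signal, 8.88 units, was on array 1 at 5 µmol/kg, which did not detect it, because the limit was lower on saline array 1 (7.56 units) than on that array (10.6 units). The other Ptgs2 probe read between −2.64 and 3.29 units and was detected nowhere.

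**Figure D3:**
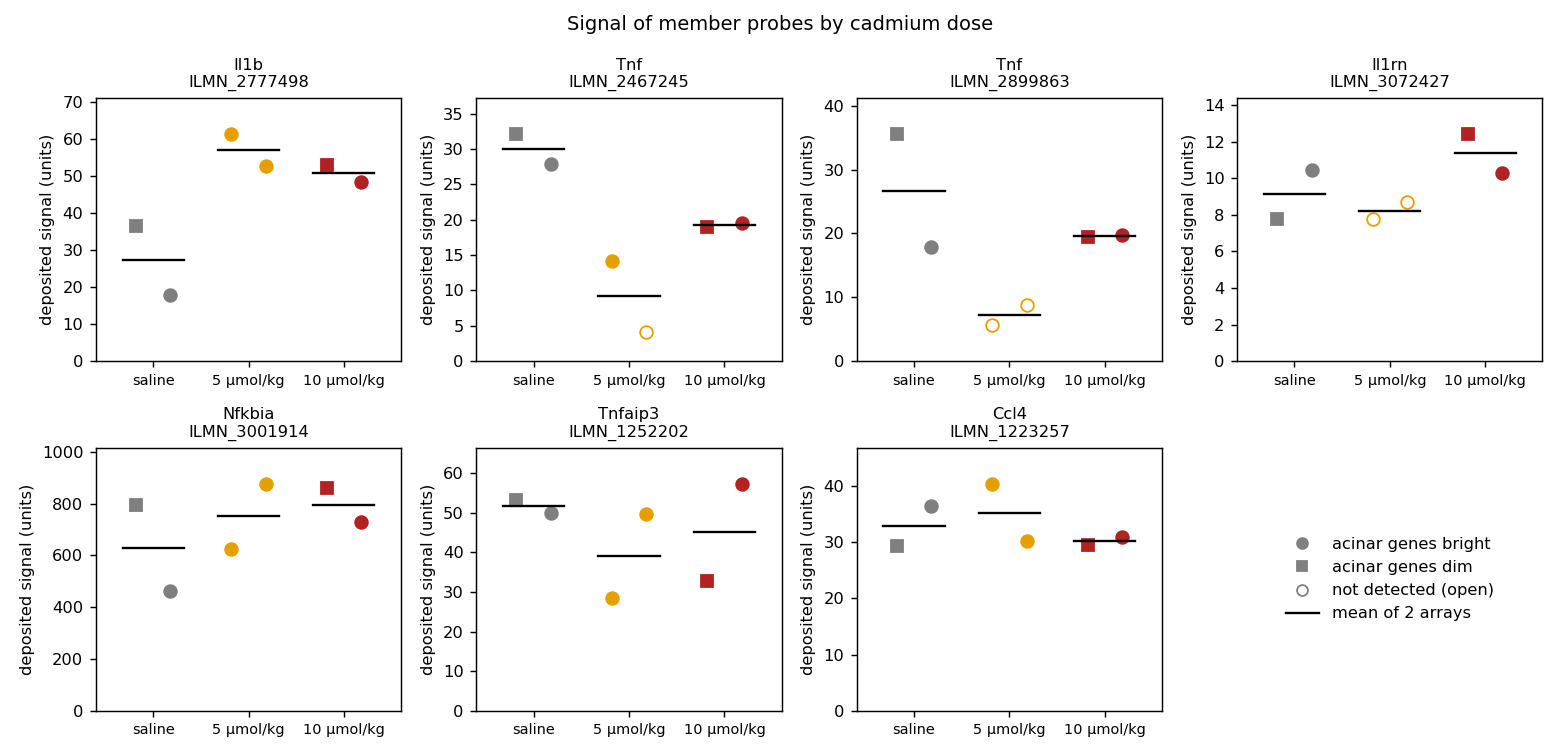
Deposited signal (y axis, units, each panel from 0) of the 7 tested probes on each array, by group (x axis). Circles are acinar-bright and squares acinar-dim arrays, open symbols were not detected, and bars are means of 2 arrays. All 4 cadmium arrays of Il1b lie above saline, both Tnf probes are lowest at 5 µmol/kg, and the Nfkbia, Tnfaip3 and Ccl4 arrays of 1 group spread about as widely as the groups differ.

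Over the 7 tested probes, 3 read above and 4 below saline at each dose, where 50.7% of all probes read above at 5 µmol/kg and 48.9% at 10 µmol/kg. Between 10 and 5 µmol/kg 5 read above and 2 below, against 49.2% above and 50.8% below of all probes. In the 5 µmol/kg comparison, 3 of the 7 probes had an unadjusted p under 0.05, Il1b higher and both Tnf probes lower, where 9.73% of all 18960 probes did (5.41% higher and 4.32% lower). The groups did not overlap for 4 of the 7, the same 3 and Tnfaip3, against 48.2% of all probes. For 10 µmol/kg, 0 of the 7 had an unadjusted p under 0.05 (1.42% of all probes, 0.923% higher and 0.501% lower), and the groups did not overlap for 2, against 22.9%. Between 10 and 5 µmol/kg these counts were 0 (1.17% of all probes, 0.538% higher and 0.633% lower) and 3 (30.3%). Both Tnf probes read the same transcript and are not independent.

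After adjustment over all 18960 probes, 0 of the 7 passed in any comparison in limma's test, with the smallest adjusted p at 0.4995. Of all probes 0% passed at 5 µmol/kg (1844 had an unadjusted p under 0.05) and 0.00527%, a single probe, at 10 µmol/kg against saline and against 5 µmol/kg. That probe, ILMN_2435206 of Tmem14c, a carrier in haem synthesis, was singled out after its values were seen. It read −5.49 and 0.80 units at 10 µmol/kg, against 1209 and 2666 units in saline, at least 70.0-fold lower, while the gene's other 2 tested probes differed by −0.04 ± 0.48 and −0.16 ± 0.51. Against 5 µmol/kg, where the called probe was at least 114-fold lower, the other 2 differed by −1.29 ± 0.48 and −0.86 ± 0.51, with unadjusted p values of 0.02887 and 0.1329 by limma.

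With the brightest tested probe standing for each gene, the median difference of the 6 genes was 0.01 at 5 µmol/kg, with 3 above and 3 below saline, and the range ran from −0.90 to 0.79. For 10 µmol/kg it was 0.02, again with 3 above and 3 below, and the range was −0.38 to 0.66. Over all probes the medians were 0.01 and −0.01. Between the doses the median was 0.12, with 4 above and 2 below, against −0.01 over all probes. The cadmium comparisons share the saline arrays.

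**Figure D4:**
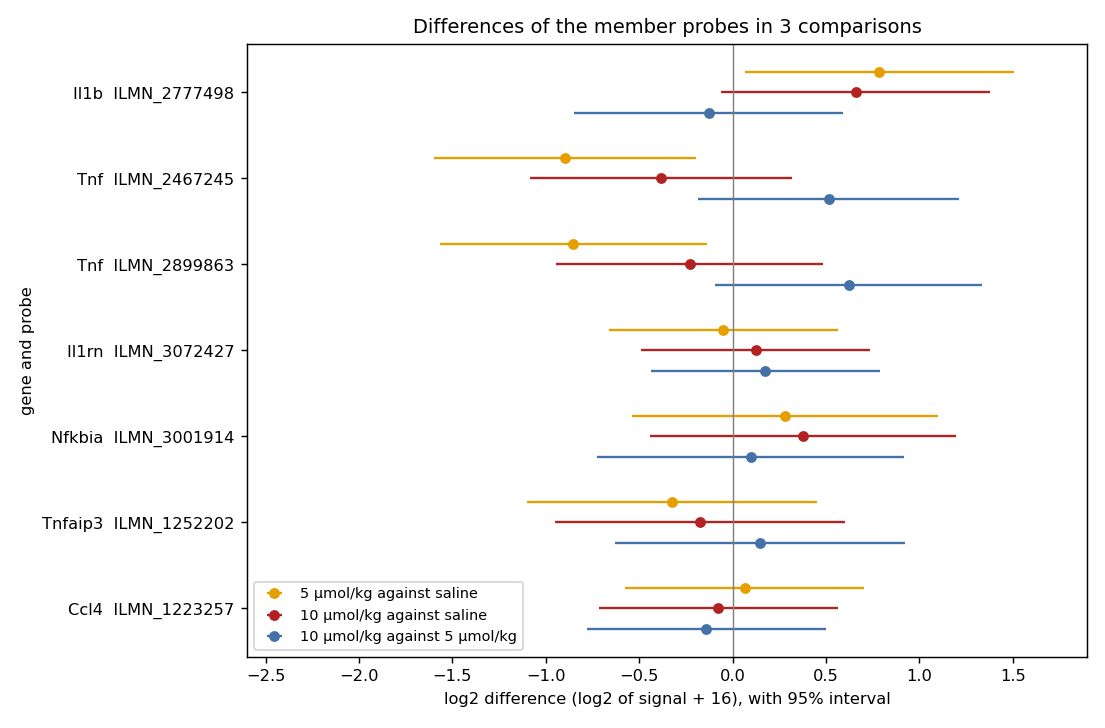
Log2 difference of the 7 tested probes (x axis, log2 of signal + 16, with 95% intervals) in the 3 comparisons. At 5 µmol/kg against saline the intervals of Il1b (0.07 to 1.51) and of both Tnf probes lie off 0 on opposite sides, and all other intervals include 0.

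The rest of the pathway was read from a list of 79 genes in 7 roles, of which 58 were measured. In the 5 µmol/kg group 23 read above and 35 below saline, and 2 had an unadjusted p under 0.05, which is 3.45% against 9.73% of all probes. In the 10 µmol/kg group 27 read above and 31 below, and 1 had an unadjusted p under 0.05, 1.72% against 1.42%. Of 10 against 5 µmol/kg, 32 read above and 26 below, and 0 had an unadjusted p under 0.05, against 1.17% of all probes. The shares of all probes that read above were 50.7% and 48.9% at 5 and 10 µmol/kg against saline and 49.2% between the doses. In limma's test 0 of the 58 passed after adjustment in any comparison.

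The genes with an unadjusted p under 0.05 were Hpgds, Csf1 and Irak3. Hpgds, haematopoietic prostaglandin D synthase, read 28.2 and 22.0 units at 5 µmol/kg, against 3.07 and 6.40 units in saline, a difference of 0.99 ± 0.30 (unadjusted p = 0.01233, adjusted p = 0.4995 by limma). Neither saline array detected it, and against their detection limits it was at least 1.65-fold higher. Its 10 µmol/kg arrays read 5.96 and 15.4 units, of which the second was detected. Hpgds thus passed the filter only through the 5 µmol/kg group, and a higher reading there was favoured by the filter. Csf1, the growth factor of macrophages, read 13.2 and 26.1 units at 5 µmol/kg, against 50.1 and 48.3 units in saline (−0.90 ± 0.34, unadjusted p = 0.0324, adjusted p = 0.4995 by limma). In the 10 µmol/kg group Csf1 read 54.0 units on the acinar-dim array and 27.4 units on the acinar-bright array. Irak3, an inhibitor of signalling from IL-1 and Toll-like receptors, read 55.7 and 59.9 units at 10 µmol/kg, against 117 and 93.4 units in saline (−0.71 ± 0.28, unadjusted p = 0.03552, adjusted p = 0.9998 by limma). In the 5 µmol/kg group Irak3 read 63.8 and 78.7 units, so all 4 cadmium arrays lay below both saline arrays. The group lay wholly below saline for 24% of all probes at 5 µmol/kg and for 10.9% at 10 µmol/kg.

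The list of receptors held those of IL-1, TNF, chemokines, prostaglandins and microbial products. Of its 8 measured genes 8 read above saline at 10 µmol/kg, with a median of 0.23, and 4 at 5 µmol/kg, with a median of 0.03. Of all probes 48.9% and 50.7% read above saline at 10 and 5 µmol/kg. At each dose 0 of the 8 had an unadjusted p under 0.05, and Il1r1, Il1r2 and Ptger2 were each detected on 2 of the 6 arrays. For Il1r2 both detections were at 10 µmol/kg, so it passed the filter only through that group. Its place among the 8 above saline, and above 5 µmol/kg, was favoured by the filter. Tnfrsf1a, the widely expressed TNF receptor, had the smallest p on the higher side at both doses, with 62.1 and 61.2 units at 5 µmol/kg and 52.2 and 87.2 units at 10 µmol/kg, against 42.6 and 31.1 units in saline. Its differences were 0.56 ± 0.31 and 0.68 ± 0.31, with unadjusted p values of 0.1103 and 0.06426 by limma. Tlr2, a receptor of bacterial lipoproteins, differed by −0.04 ± 0.28 and 0.32 ± 0.28. The prostaglandin receptor Ptger2, detected on 2 of the 6 arrays and on neither at 5 µmol/kg, differed by −0.21 ± 0.28 there. Between 10 and 5 µmol/kg the decoy receptor Il1r2, which binds IL-1 without signalling, differed by 0.41 ± 0.29 (unadjusted p = 0.1977 by limma). No 5 µmol/kg array detected Il1r2, and by group means it was at least 1.21-fold higher at 10 µmol/kg. The neutrophil chemokine receptor Cxcr2 differed by −0.01 ± 0.31 between the doses.

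Adaptors and kinases between receptor and NF-κB were spread around 0, with 5 of 12 above saline at each dose. Over all probes 50.7% read above saline at 5 µmol/kg and 48.9% at 10 µmol/kg. Myd88, the adaptor of Toll-like and IL-1 receptors, differed by −0.01 ± 0.27 at 5 µmol/kg and −0.04 ± 0.27 at 10 µmol/kg, with its second probe of the opposite sign at 10 µmol/kg. Tradd, an adaptor of the TNF receptor, differed by 0.62 ± 0.31 and 0.46 ± 0.31. The ubiquitin ligase Birc2 differed by −0.85 ± 0.42 at 5 µmol/kg, with 1 of its 4 tested probes of the opposite sign, and the ubiquitin ligase Traf6 by −0.30 ± 0.29 at 10 µmol/kg. Between 10 and 5 µmol/kg the kinase Map3k7, detected on 3 arrays, differed by −0.61 ± 0.40 and Birc2 by 0.46 ± 0.42, again with 1 probe of the opposite sign. Map3k7 was detected on 2 arrays at 5 µmol/kg and 1 at 10 µmol/kg, so it passed the filter only through the 5 µmol/kg group.

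Of the 4 measured NF-κB subunits, 3 read below saline at each dose, among them Rela, the transactivating subunit p65. Of all probes 49.3% and 51.1% read below saline at 5 and 10 µmol/kg. Rela read 436 and 537 units at 5 µmol/kg and 726 and 554 units at 10 µmol/kg, against 774 and 764 units in saline, so the 4 cadmium arrays lay below saline. The group lay wholly below saline for 24% of all probes at 5 µmol/kg and for 10.9% at 10 µmol/kg. The Rela differences were −0.65 ± 0.29 and −0.27 ± 0.29, with unadjusted p values of 0.05437 and 0.3718 by limma, and 0.38 ± 0.29 between the doses. On the acinar-dim arrays alone Rela read 726 units at 10 µmol/kg, against 774 units in saline. The subunit Rel, detected on 2 of the 6 arrays and on neither at 10 µmol/kg, differed by 0.20 ± 0.30 at 5 µmol/kg and 0.04 ± 0.30 at 10 µmol/kg, and by −0.15 ± 0.30 at 10 against 5 µmol/kg.

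The other inhibitors of the pathway leaned below saline, in 11 of 12 measured genes at 5 µmol/kg (median −0.30) and in 9 of 12 at 10 µmol/kg (median −0.16), though 0 and 1 of them had an unadjusted p under 0.05. Over all probes 49.3% read below saline at 5 µmol/kg and 51.1% at 10 µmol/kg. Zfp36, which speeds the decay of Tnf mRNA, read 627 and 762 units at 5 µmol/kg, against 1326 and 898 units in saline (−0.65 ± 0.31). Dusp1, a phosphatase that shuts off stress kinases, was on the other side, at 0.48 ± 0.42 at 5 µmol/kg and 0.32 ± 0.42 at 10 µmol/kg. Tnip1, a partner of A20, differed by −0.16 ± 0.27 and −0.10 ± 0.27, with other probes of it opposite in sign. Between 10 and 5 µmol/kg Tnip2, another A20 partner, differed by 0.63 ± 0.43 and Irak3 by −0.24 ± 0.28. The 7 measured immediate early genes, which respond to stimulation and to handling of tissue, summed to 555 to 696 units at 5 µmol/kg and 746 to 751 units at 10 µmol/kg, against 624 to 1064 units in saline.

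Of the 5 measured genes of cytokine processing, 2 read above saline at 5 µmol/kg and 3 at 10 µmol/kg, where 50.7% and 48.9% of all probes did. At 10 against 5 µmol/kg 5 of 5 read above, with a median of 0.19 and 0 of them with an unadjusted p under 0.05, where 49.2% of all probes read above. Casp1, which cuts the IL-1β precursor, read 437 and 525 units at 5 µmol/kg and 429 and 603 units at 10 µmol/kg, against 557 and 557 units in saline (−0.21 ± 0.29 and −0.13 ± 0.29). Il18, another cytokine cut by caspase-1, differed by 0.29 ± 0.32 and 0.48 ± 0.32. Gsdmd, whose fragment forms the pore that releases IL-1β, differed by −0.54 ± 0.37 at 5 µmol/kg and by 0.58 ± 0.37 between the doses, with 1 of its 3 probes opposite in sign in each. Adam17, the protease that frees TNF from the cell surface, differed by −0.13 ± 0.27 at 10 µmol/kg.

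Among other genes that NF-κB is known to induce, 12 of 20 were measured, and 5 read above saline at 5 µmol/kg and 3 at 10 µmol/kg. Of all probes 50.7% and 48.9% did. Il6 was detected on 3 arrays, with 12.9 and 14.6 units at 5 µmol/kg, against 9.06 and −0.68 units in saline (0.57 ± 0.32), and 4.69 and 0.71 units at 10 µmol/kg, where neither array detected it. The detections were 2 at 5 µmol/kg and 1 in saline, so Il6 passed the filter only through the 5 µmol/kg group. Against the detection limits of the 10 µmol/kg arrays Il6 was at least 1.15-fold lower at 10 than at 5 µmol/kg, with a fitted difference of −0.68 ± 0.32. Csf1 differed by 0.65 ± 0.34 between the same groups. Il1a, the other IL-1 ligand, differed by 0.43 ± 0.34 and Marcksl1 by −0.48 ± 0.32 at 10 µmol/kg. Sod2, mitochondrial superoxide dismutase, differed by 0.25 ± 0.33 at 5 µmol/kg and 0.05 ± 0.33 at 10 µmol/kg. In prostaglandin synthesis, Hpgd, which breaks prostaglandins down, read 199 and 282 units at 5 µmol/kg and 186 and 469 units at 10 µmol/kg, against 150 and 200 units in saline (0.42 ± 0.44 and 0.73 ± 0.44). Ptges, which makes prostaglandin E, differed by −0.30 ± 0.27 at 10 µmol/kg, with its second probe opposite in sign, and Hpgds by −0.64 ± 0.30 at 10 against 5 µmol/kg.

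**Figure D5:**
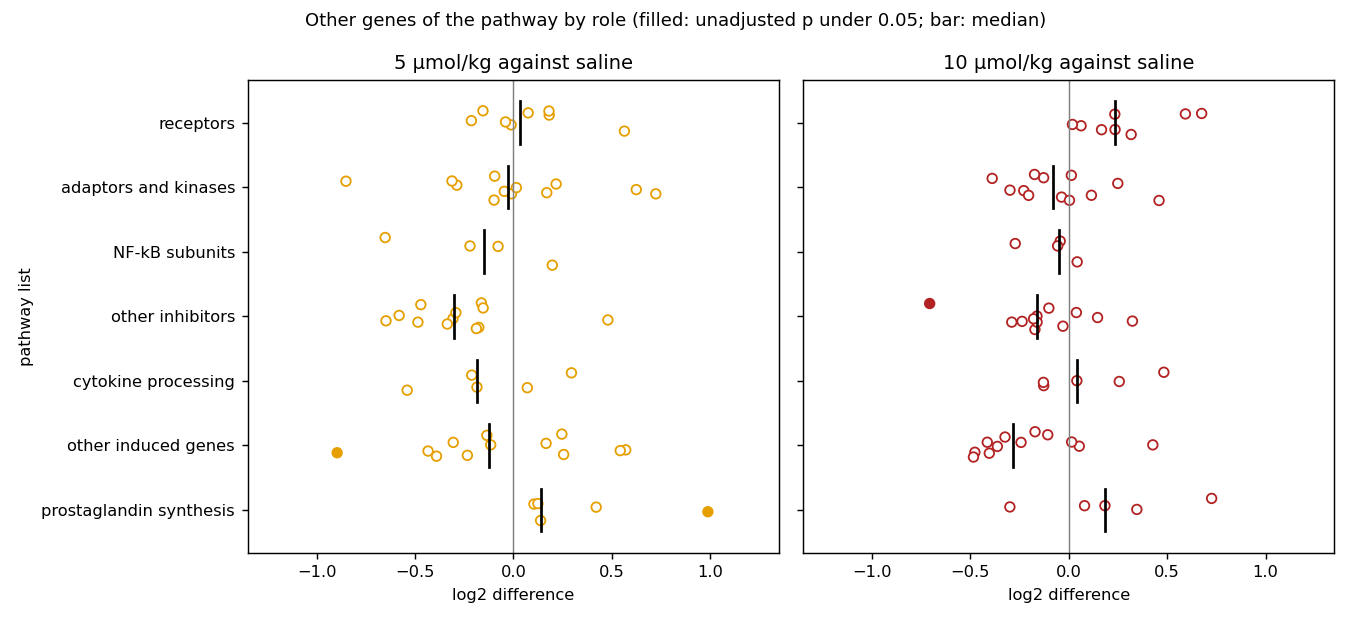
Log2 difference (x axis, log2 of signal + 16) of the 58 measured pathway genes by role (rows) at 5 and 10 µmol/kg against saline. Each circle is a gene, filled where the unadjusted p is under 0.05, and bars are list medians. The other inhibitors have medians of −0.30 and −0.16 and the receptors 0.03 and 0.23.

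Genes with a pattern like that of a member over the 6 arrays were found by Pearson's r of the log2 signal, as a description only, since the arrays share their groups and acinar split and 16223 probes were searched (16222 for Tnf). Closest to Il1b were Bsg (r = 0.996), Ube2v1 (0.995) and Crkl (0.991), and 48 probes had r above 0.95. Closest to Tnf, by ILMN_2467245, were Kdm1b (0.981), Rilp (0.979) and Chordc1 (0.976), with 10 probes above 0.95. Chordc1 read 275 and 185 units at 5 µmol/kg and 317 and 281 units at 10 µmol/kg, against 473 and 412 units in saline, which is the order of Tnf. Closest to Nfkbia were Morn4 (0.997), Tbc1d10a (0.995) and Tsc22d4 (0.993), with 29 probes above 0.95. Ccl3 was not detected and has no such genes.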

How the data were processed

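RNA was purified with Trizol and RNeasy columns and amplified with a biotin kit, per the labels' protocols. The authors deposited, for each probe and array, a mean bead intensity on a linear scale and a detection p-value. The intensities reach down to −20.1 units, and sorted values are the same across arrays to within 0.243 units. The deposited values had thus already been background-subtracted and quantile-normalized, with software not given in the sources used here. A second deposited table held the same intensities for all of its 45279 probes.

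No further correction was made. Signals below 0 were set to 0, 16 was added and log2 taken, which understates changes of dim probes. Probes detected (p under 0.05) on at least 2 of 6 arrays were fitted with limma 3.58.1 in R 4.3.3, with 3 group means, 3 residual and 4.523 prior degrees of freedom, and Benjamini-Hochberg adjustment over all 18960 probes. The fit was run on simulated data with planted shifts and independent normal noise of the fit's own spread. The simulation held no acinar split or detection limit, so it checked the code, not how many real differences these arrays can show. Symbols came from the platform annotation (1 symbol for 34885 probes, several for 18, none for 10378), and 34807 were found by gene ID in RefSeq's table of GRCm38.p6. Where 1 probe stood for a gene, it was the tested probe with the highest mean. A group with no detected array was given its arrays' detection limits as a bound. The at-least folds are of group means of log2(signal + 16) against that bound and leave out array-to-array spread.

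All 10 genes were named. Of each pathway list the brightest gene and, in each comparison, the smallest p in each direction were named, and for Il1b, Tnf, Nfkbia and Ccl3 the 3 most similar genes. Members and lists were chosen with earlier results of these data known. Alternatives changed the correction, offset, filter, probe choice, arrays, variance model, replicate block and acinar level. Precision is limited by having 2 arrays per group.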

Additional observations from a re-analysis of the deposited data

How the results depend on the processing

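With 2 arrays per group, and many signals near the detection limit, no setting run called any of the 7 tested probes in any comparison. Il1b kept its direction at both doses and Tnf its direction at 5 µmol/kg under every setting run that kept their probes. The median over the genes at 5 µmol/kg was 0.17 with probes detected on all 6 arrays and −0.085 with the acinar-bright arrays alone, and leaving out 1 array gave −0.085 to 0.0069. At 10 µmol/kg it was −0.078 with a detection p under 0.01 and 0.15 with probes detected on all 6 arrays (left-out arrays −0.048 to 0.092), and between the doses −0.016 with probes detected on all 6 arrays (−0.019 to 0.21). The cause of these shifts was not tested. The stricter filters kept fewer genes, 4 with probes detected on all 6 arrays (without Tnf and Il1rn) and 5 with a detection p under 0.01 (without Il1rn). Tmem14c, the single probe past the threshold at 10 µmol/kg against saline, was lost, so that 0 passed, with neqc, an offset of 32 or 4, no filter, detection on all 6 arrays, 1 probe per gene, only the groups compared and the acinar-bright arrays, and the count was 0 to 1 over left-out arrays. Against 5 µmol/kg 0 passed with no filter, detection on all 6 arrays, 1 probe per gene and the acinar-bright arrays, and 0 to 1 over left-out arrays. At 5 µmol/kg 0 passed throughout. Under detection on all 6 arrays and under 1 probe per gene, the called Tmem14c probe was left out before the test, so it could not pass there. Signs turned among the acinar-bright arrays for Ccl4 at 5 µmol/kg (−0.042), and at 10 µmol/kg for Tnf ILMN_2899863 (0.078), Il1rn (−0.0085) and Tnfaip3 (0.15). Ccl4 was 0.0071 at 10 µmol/kg between the acinar-dim arrays. Between the doses Nfkbia was −0.14 with the acinar covariate and −0.019 among the acinar-bright arrays.

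Leaving out 1 array, the differences at 5 µmol/kg ran from 0.47 to 1.10 for Il1b, −1.19 to −0.61 and −1.15 to −0.55 for Tnf, −0.13 to 0.027 for Il1rn, −0.10 to 0.66 for Nfkbia, −0.61 to −0.04 for Tnfaip3 and −0.081 to 0.21 for Ccl4. At 10 µmol/kg they ran from 0.35 to 0.97 for Il1b, −0.45 to −0.32 and −0.53 to 0.072 for Tnf, −0.0035 to 0.76 for Nfkbia, −0.47 to 0.12 for Tnfaip3 and −0.18 to 0.028 for Ccl4. Between the doses they ran from −0.14 to 0.33 for Nfkbia, −0.14 to 0.44 for Tnfaip3 and −0.29 to 0.0027 for Ccl4. Where 1 array was left in a group, it was assumed to vary like the others. Whether the replicate numbers of the titles pair the arrays could not be decided with 2 arrays per group. Deviations of same-numbered arrays correlated at 0.55 between saline and 10 µmol/kg, −0.24 between saline and 5 µmol/kg and −0.13 between the doses. In saline and at 10 µmol/kg alike, array 1 was acinar-dim and array 2 acinar-bright. With the replicate number as a block, 0, 1 and 1 probes passed in the 3 comparisons, in the order 5 and 10 µmol/kg against saline and 10 against 5 µmol/kg. With the numbers at 5 µmol/kg exchanged, an alternative chosen after seeing the data, the counts were also 0, 1 and 1.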
